A study of Saccharomyces cerevisiae with 18 samples.

Results

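The genes described here encode the RNA polymerase II transcription machinery of Saccharomyces cerevisiae. They are 36 of the 6465 gene windows in the deposited tables, chosen by name: 7 subunits specific to RNA polymerase II, the TATA-binding protein SPT15 with the 14 TBP-associated factors TAF1 to TAF14, 2 genes of TFIIA, 1 of TFIIB, 2 of TFIIE, 2 of TFIIF and 7 of TFIIH. Every one of the 36 was found in the R64 annotation, and none was chosen for its values.

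The series measured RNA by SLAM-seq, in which cells are fed 4-thiouracil (4tU), the RNA is alkylated, and each alkylated 4tU base shows up in the reads as a T-to-C conversion. Reads with at least 2 conversions are called labelled here and stand for RNA made during the 4tU pulse of 4 min, and all reads stand for total RNA. In strain RDY73 both BET-family bromodomain proteins carry an auxin-inducible degron: BDF1 bears 3XV5-mAID with URA3 as the marker, and BDF2 bears 3XV5-mAID with kanMX. Strain RDY234 has the same alleles and in addition pBDF1-BDF1::TRP1, a copy of BDF1 under its own promoter without a tag named in the labels. Both strains express the plant F-box protein OsTIR1 from pGPD1 with HIS3 as the marker, so the degron receptor was present in every group, DMSO and control libraries included. Each strain was studied in 3 groups of 3 libraries, described as biological triplicates: IAA (1 mM of the auxin 3-indoleacetic acid for 25 min, then 5 mM 4tU for 4 min), DMSO (no IAA, then 5 mM 4tU for 4 min) and control (neither IAA nor 4tU). Labelled Schizosaccharomyces pombe cells, mixed in by optical density before RNA extraction, served as a spike-in. A change per S. pombe read does not tell fewer S. cerevisiae cells in the mixture from less RNA per cell.

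At a promoter, TFIID, made of TBP and the TAFs, binds first, TFIIA stabilises it, TFIIB brings in RNA polymerase II together with TFIIF, and TFIIE and TFIIH complete the complex. TFIIH then opens the DNA and phosphorylates the tail of the largest polymerase subunit. Budding yeast TAF1 lacks the double bromodomain of its animal counterpart, and Bdf1, which binds acetylated histones and associates with TFIID, is thought to supply it. The genes below are thus both the transcripts measured and the parts of the machinery that makes transcripts.

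Depth per library was 4177363 to 8541751 reads for S. cerevisiae and 387855 to 792178 for S. pombe. The 36 genes together had 308 to 415 labelled reads per RDY73 IAA library and 1122 to 1278 per RDY73 DMSO library. In RDY234 they had 2803 to 3941 labelled reads per IAA library and 2745 to 3437 per DMSO library, so values in RDY73 after IAA rest on the fewest reads. Without 4tU they had 23 to 32 labelled reads per RDY73 control library and 80 to 95 per RDY234 control library. TRP1, whose functional copy marks the added BDF1, had 44 reads over the 3 RDY73 control libraries and 1019 over the 3 RDY234 control libraries, as the strain labels have it. The mRNA of a degron-tagged gene does not report on its protein, and protein levels of Bdf1 and Bdf2 were not analysed here.

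New RNA of all 36 genes fell after IAA in RDY73. With each library scaled to its labelled S. pombe reads, the log2 changes lay between -4.54 for TAF13 and -1.21 for RPO21, with a median of -2.28 (edgeR's quasi-likelihood test, adjusted p under 0.05 for each gene). Of all 5195 genes tested, 83.9% fell and the median was -1.97, so most of the transcriptome fell with them and the count of 36 of 36 is close to that background. Of all genes 0.385% rose. The changes of 24 members lay below the median of all genes and those of 12 above it. Values per library are given below as scaled reads, the gene's count divided by the library's S. pombe reads of the same kind and multiplied by the mean of those over libraries, and libraries of a group are called A, B and C. In 35 of the 36 genes all 3 IAA libraries lay below all 3 DMSO libraries, which held for 79.4% of all genes tested. The exception was TAF8. All 36 genes also passed the filter on low counts without the RDY73 DMSO libraries, but over the 6 RDY73 libraries alone TAF8, TFA2, SSL1, TFB3 and KIN28 did not.

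**Figure D1:**
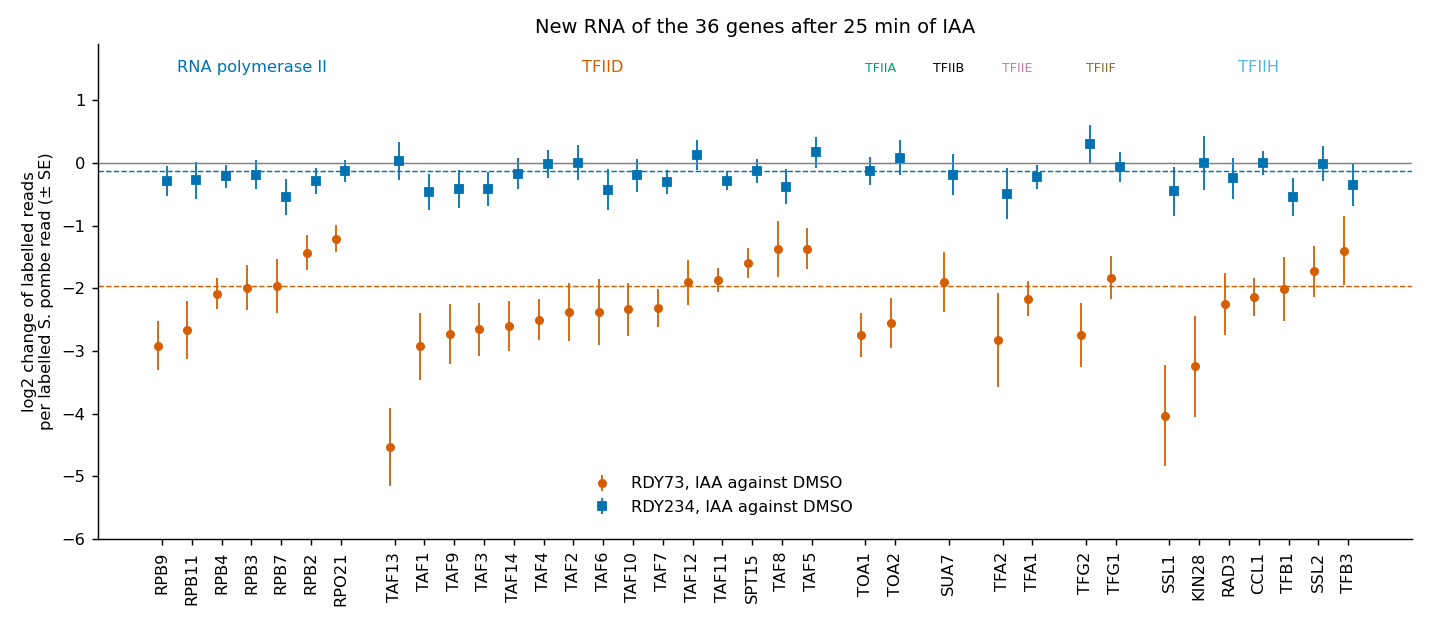
Log2 change of labelled reads per labelled S. pombe read after IAA against DMSO (vertical axis, ± SE of the fit) for each of the 36 genes, ordered within its complex, with RDY73 as orange circles and RDY234 as blue squares. Dashed lines mark the median of all 5195 genes tested, -1.97 in RDY73 and -0.12 in RDY234. All RDY73 points lie below -1, and RPB2 and RPO21 are the highest of the polymerase genes.

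Within RNA polymerase II the catalytic subunits had the smallest changes and the small subunits RPB9 and RPB11 the largest. RPB9 (YGL070C, chrVII:374459-374827, minus strand, R64), a small subunit that acts in start site selection and fidelity, had 7.15, 6.69 and 1.74 scaled labelled reads in the RDY73 IAA libraries, against 37.9, 32.0 and 46.9 in the RDY73 DMSO libraries. The groups were far apart, and the log2 change was -2.91 ± 0.39 (SE, adjusted p = 9.58e-13). RPO21 (YDL140C, chrIV:205360-210561, minus strand), the largest subunit, which carries the catalytic centre and the C-terminal tail, had 32.7, 35.95 and 45.2 scaled labelled reads after IAA, against 89.5, 109.6 and 68.8 after DMSO. Every IAA library was below every DMSO library here too, at a log2 change of -1.21 ± 0.22 (adjusted p = 1.7e-07). RPB2, the other catalytic subunit, changed by -1.43 ± 0.28, and RPB11 and RPB3, which pair to start the assembly of the enzyme, by -2.67 ± 0.47 and -1.99 ± 0.36. RPB4 and RPB7, which form the stalk, changed by -2.09 ± 0.25 and -1.97 ± 0.43. The median of the 7 genes was -1.99.

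TFIID held both the steepest fall and some of the mildest. TAF13 (YML098W, chrXIII:77267-77770, plus strand), a histone-fold subunit that pairs with TAF11, had 1, 0 and 2 labelled reads in the RDY73 IAA libraries, against 21, 21 and 18 in the RDY73 DMSO libraries. The pooled ratio per S. pombe read was 0.0386, with an exact 95% counting interval of 0.00774 to 0.118, and the fitted log2 change was -4.54 ± 0.62 (adjusted p = 3.45e-12). Its partner TAF11 changed by -1.87 ± 0.19. TAF5 (YBR198C, chrII:616127-618523, minus strand), the WD40 repeat scaffold, had 16.3, 16.7 and 10.4 scaled labelled reads after IAA, against 42.1, 30.5 and 38.6 after DMSO. The groups did not overlap, and the log2 change was -1.37 ± 0.33 (adjusted p = 6.01e-05).

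SPT15 (YER148W, chrV:465303-466025, plus strand), the TATA-binding protein used by all 3 nuclear polymerases, had 30.6, 35.1 and 22.6 scaled labelled reads in the RDY73 IAA libraries, against 82.1, 115.7 and 74.0 in the RDY73 DMSO libraries. The groups were apart, with a log2 change of -1.59 ± 0.24 (adjusted p = 1.78e-10). TAF8, a histone-fold subunit, had 9.19, 6.69 and 4.35 scaled labelled reads after IAA, against 8.42, 24.4 and 20.8 after DMSO. It was the single member whose groups overlapped, through 1 low DMSO library, and its fitted change was -1.37 ± 0.45 (adjusted p = 0.00305).

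The other TAFs lay between these. TAF1, which binds TBP, changed by -2.92 ± 0.53, its partner TAF7 by -2.31 ± 0.31 and TAF2, which contacts DNA near the start site, by -2.38 ± 0.46. The histone-fold subunits TAF3, TAF4, TAF6, TAF9, TAF10 and TAF12 changed by -2.65, -2.50, -2.37, -2.73, -2.33 and -1.90 on the log2 scale, and TAF14, a YEATS domain protein that other complexes also contain, by -2.61. TAF5, TAF6, TAF9, TAF10 and TAF12 are also parts of the SAGA coactivator. Their median was -2.33, against -2.50 for the other 9 TAFs, and the ranges overlapped. In total RNA of RDY73 the order was the other way, with medians of -1.68 and -1.60, and the ranges overlapped too.

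The factors that join TFIID at the promoter fell as well. TOA1 and TOA2, the large and small subunits of TFIIA, changed by -2.74 ± 0.35 and -2.55 ± 0.41. SUA7 (YPR086W, chrXVI:710101-711138, plus strand), which encodes TFIIB and sets the start site with the polymerase, had 4.09, 5.02 and 6.09 scaled labelled reads in the RDY73 IAA libraries, against 14.7, 25.9 and 18.8 in the RDY73 DMSO libraries. Its groups did not overlap and the log2 change was -1.90 ± 0.48 (adjusted p = 0.000139), close to the median of all genes. TFA1 and TFA2, the subunits of TFIIE, changed by -2.16 ± 0.28 and -2.82 ± 0.75. TFG1 and TFG2, the genes grouped here under TFIIF, changed by -1.83 ± 0.34 and -2.74 ± 0.51.

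TFIIH spread almost as widely as TFIID. SSL1 (YLR005W, chrXII:160049-161434, plus strand), a subunit of its core, had 1, 0 and 1 labelled reads in the RDY73 IAA libraries, against 12, 10 and 8 in the RDY73 DMSO libraries. The pooled ratio was 0.0515 (exact 95% counting interval 0.00596 to 0.203) and the fitted log2 change -4.04 ± 0.81 (adjusted p = 1.77e-06). TFB3 (YDR460W, chrIV:1383811-1384776, plus strand), which holds the kinase module to the core, had 4, 5 and 5 labelled reads after IAA, against 9, 8 and 12 after DMSO. All IAA libraries were below all DMSO libraries, with a log2 change of -1.40 ± 0.55 (adjusted p = 0.0139).

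KIN28, the kinase of the polymerase tail, had 1, 2 and 0 labelled reads in the RDY73 IAA libraries, against 3, 11 and 10 in the RDY73 DMSO libraries. The pooled ratio was 0.0965 (exact 95% counting interval 0.0186 to 0.318), and 29 bases of its window overlap that of MSS2. Its cyclin CCL1 changed by -2.14 ± 0.30. The helicase RAD3, the translocase SSL2 and the core subunit TFB1 changed by -2.25 ± 0.50, -1.72 ± 0.41 and -2.01 ± 0.51. These counting intervals pool the reads of the 3 libraries of each group and cover counting error only, not the spread between libraries. They also take each read as separate, although reads may be copies of 1 molecule.

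**Figure D2:**
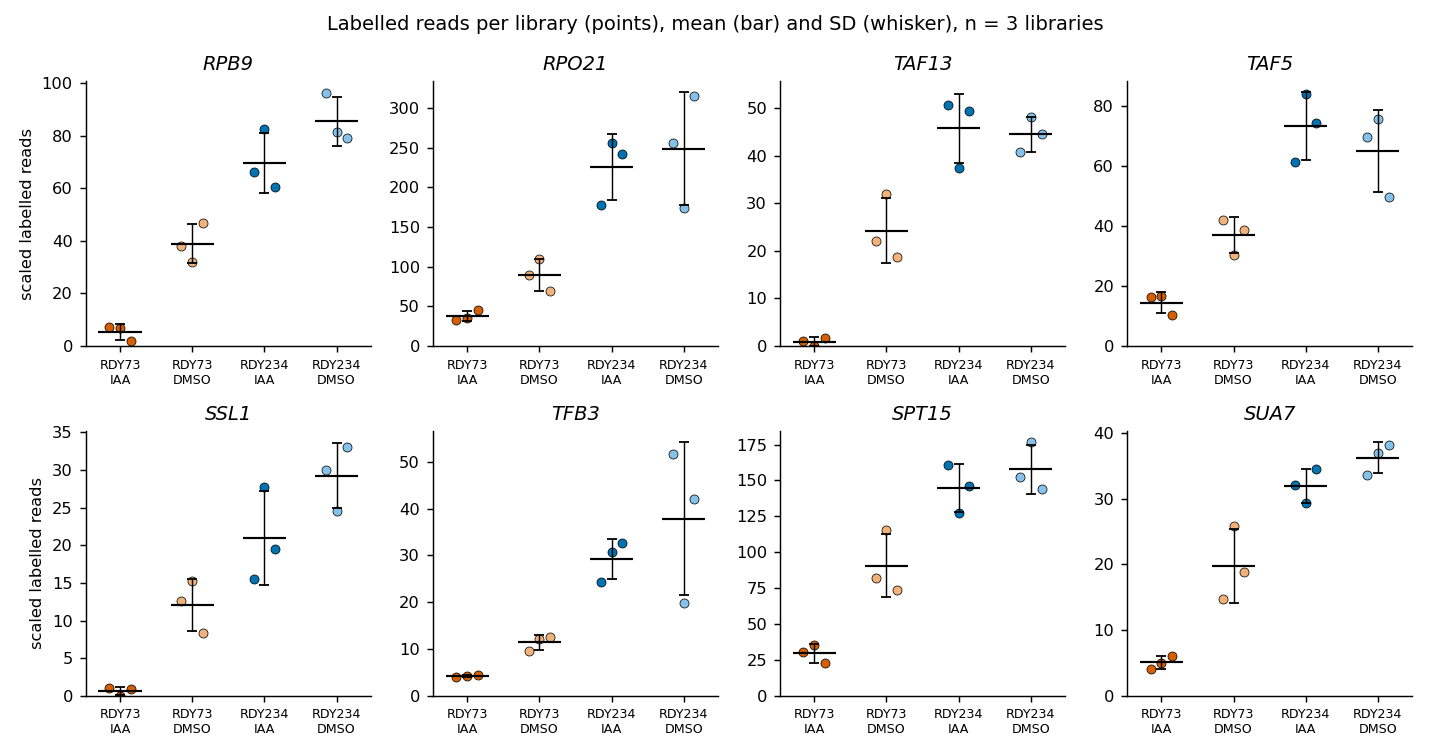
Labelled reads scaled to the labelled S. pombe reads (vertical axes, starting at 0) in each library of the IAA and DMSO groups of RDY73 and RDY234, for the most and least changed genes of RNA polymerase II, TFIID and TFIIH and for SPT15 and SUA7. Points are libraries, bars the mean and whiskers the SD of 3 libraries. In RDY73 the IAA points lie below the DMSO points in all 8 genes, and in RDY234 they overlap or lie close.

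Promoters are shown for the most and least changed polymerase genes (RPB9 and RPO21), the most changed genes of TFIID and TFIIH (TAF13 and SSL1) and the TBP gene SPT15, since the genes moved together although no sequence feature was used to choose them. The stretches run from 200 to 51 bases before the start codon, 5′ to 3′ on the gene's strand, read from the R64 genome of RefSeq, and capitals mark a match to a motif searched. The motifs were the TATA element in its 8 spellings (TATAAAAA, TATAAAAG, TATAAATA, TATAAATG, TATATAAA, TATATAAG, TATATATA and TATATATG), TTACCCG for Reb1, and the Abf1 and Rap1 consensus motifs, each on both strands. The stretches lie at chrVII:374878-375027 on the minus strand for RPB9, chrIV:210612-210761 on the minus strand for RPO21, chrXIII:77067-77216 on the plus strand for TAF13, chrXII:159849-159998 on the plus strand for SSL1, and chrV:465103-465252 on the plus strand for SPT15.
RPB9: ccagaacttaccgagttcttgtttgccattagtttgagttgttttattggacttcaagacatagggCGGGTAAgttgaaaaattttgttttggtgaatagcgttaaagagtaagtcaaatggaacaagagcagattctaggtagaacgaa
RPO21: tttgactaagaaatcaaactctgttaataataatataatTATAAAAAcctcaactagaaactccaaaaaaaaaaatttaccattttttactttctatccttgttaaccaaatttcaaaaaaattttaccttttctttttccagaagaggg
TAF13: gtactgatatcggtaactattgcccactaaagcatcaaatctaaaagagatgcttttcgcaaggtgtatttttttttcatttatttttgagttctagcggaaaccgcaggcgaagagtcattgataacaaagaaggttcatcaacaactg
SSL1: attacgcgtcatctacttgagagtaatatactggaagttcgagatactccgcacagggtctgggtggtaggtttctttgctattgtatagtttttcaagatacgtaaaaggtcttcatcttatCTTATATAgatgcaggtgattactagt
SPT15: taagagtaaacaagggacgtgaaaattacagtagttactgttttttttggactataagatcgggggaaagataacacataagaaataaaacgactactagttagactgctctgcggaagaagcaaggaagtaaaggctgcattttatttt

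A TATA element stood in the RPO21 promoter, 161 to 154 bases before the start codon, and on the other strand in that of SSL1, 77 to 70 bases before it. RPB9 carried a Reb1 match on the other strand, 134 to 128 bases before the start codon, and the stretches of TAF13 and SPT15 held no match to these motifs. Over the 250 bases before the start codon, 12 of the 36 genes (33.3%) held a TATA element, against 34.6% of the promoters of 5180 genes tested. A Reb1 match was found in 10 members (27.8%), against 8.09% of all promoters, and an Abf1 match in 11 members (30.6%), against 14.3%. No member held the Rap1 match, found in 1.95% of all promoters. A run of 8 T on either strand, also searched and not in capitals, was in 25.0% of members, TAF13, SPT15 and RPO21 among them, and 32.0% of all promoters. The median A+T content was 64.2% in the members and 65.2% in all promoters. The 12 members with a TATA element had a median log2 change of new RNA of -2.04 and the other 24 of -2.37, against -1.73 and -2.07 for all genes with and without one. A match is a description of the letters and was not tested as a binding site.

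In RDY234, the strain with the added BDF1, no change of new RNA after IAA was called for any of the 36 genes. By edgeR's quasi-likelihood test 0 members passed the adjusted threshold and 0 reached an unadjusted p under 0.05. The count by DESeq2 was also 0. Among all genes 0.0192% fell and 0.0192% rose, and 245 had an unadjusted p under 0.05. The members' log2 changes ran from -0.54 for RPB7 to 0.30 for TFG2, with a median of -0.20, against -0.12 for all genes. RPO21 had 178.2, 256.6 and 242.2 scaled labelled reads in the RDY234 IAA libraries, against 255.7, 174.1 and 315.8 in the RDY234 DMSO libraries, and the groups overlapped. TAF13 had 50.6, 37.5 and 49.4 after IAA, against 40.8, 48.2 and 44.6 after DMSO, and these groups overlapped too. In 7 members (RPB2, RPB7, TAF7, TAF8, TAF9, TFB1 and RAD3) all 3 IAA libraries lay below all 3 DMSO libraries, against 12.3% of all genes.

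The effect of IAA differed between the strains for 34 of the 36 genes, more negative in RDY73 each time, where 74.2% of all genes tested behaved this way and 0.231% the other way. The median difference was -2.02 for the members and -1.82 for all genes. The largest differences were -4.57 ± 0.72 for TAF13 (adjusted p = 4.24e-09), -3.58 ± 0.93 for SSL1 and -3.25 ± 0.93 for KIN28. RPO21 differed by -1.08 ± 0.28 (adjusted p = 0.000313), SPT15 by -1.46 ± 0.30 and SUA7 by -1.71 ± 0.58. TAF8 and TFB3 did not pass, with -0.99 ± 0.53 (adjusted p = 0.0766) and -1.06 ± 0.65 (adjusted p = 0.125). TAF8 passed without RDY73 DMSO library A (-1.36) or IAA library A (-1.25), and both passed when 1 conversion sufficed, TAF8 at -1.10 and TFB3 at -1.69.

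Total RNA of all 36 genes also fell in RDY73 after IAA, by less than new RNA for all but TFB3. The log2 changes per S. pombe read lay between -2.13 and -0.37 with a median of -1.49, while 77.9% of the 6100 genes tested fell and their median was -1.24. All 3 IAA libraries lay below all 3 DMSO libraries for all 36 members, which held for 77.8% of all genes. TAF13 had 56.5, 54.3 and 47.4 scaled reads in the RDY73 IAA libraries, against 218.2, 281.3 and 197.0 in the RDY73 DMSO libraries, a change of -2.13 ± 0.17 (adjusted p = 9.85e-15). TAF6, which pairs with TAF9, followed with -2.11 ± 0.18 and TFG2 with -1.89 ± 0.18. By complex the median change was -1.35 for the polymerase genes, -1.60 for TFIID, -1.62 for TFIIA, -1.66 for TFIIE, -1.65 for TFIIF and -1.50 for TFIIH, and SUA7, the TFIIB gene, changed by -1.17 ± 0.16. The changes of 28 members lay below the median of all genes and those of 8 above it.

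RPO21, RPB2 and SPT15 had the smallest changes of total RNA. RPO21 had 735.1, 839.6 and 764.5 scaled reads in the RDY73 IAA libraries, against 1027, 1134 and 875.5 in the RDY73 DMSO libraries. The groups were close but did not overlap, and the log2 change was -0.37 ± 0.14 (adjusted p = 0.0139). Without DMSO library B it was -0.29 and without IAA library A -0.33, and neither passed the threshold. SPT15 had 383.9, 426.2 and 381.4 scaled reads after IAA, against 722.6, 778.5 and 607.6 after DMSO. Its groups were well apart, with a change of -0.82 ± 0.13 (adjusted p = 1.53e-07), and RPB2 changed by -0.65 ± 0.13 (adjusted p = 1.37e-05). In RDY234 no member's total RNA passed the threshold. There 5 members had an unadjusted p under 0.05 by edgeR's quasi-likelihood test, DESeq2 called 0, and 0.0164% of all genes fell. All IAA libraries lay below all DMSO libraries in 9 members, against 17.3% of all genes.

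The strain difference in total RNA passed for 35 members, all more negative in RDY73, against 69.4% of all genes more negative and 0.541% more positive, with medians of -1.32 and -1.10. It was largest for TAF13 (-2.16 ± 0.22), TFG2 (-1.82 ± 0.23) and TAF6 (-1.82 ± 0.23). RPO21 did not pass, at -0.31 ± 0.20 (adjusted p = 0.16). RPB2 passed narrowly at -0.42 ± 0.18 (adjusted p = 0.0354), and leaving out any of 7 of the 12 libraries compared ended that call, with values between -0.42 and -0.33.

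**Figure D3:**
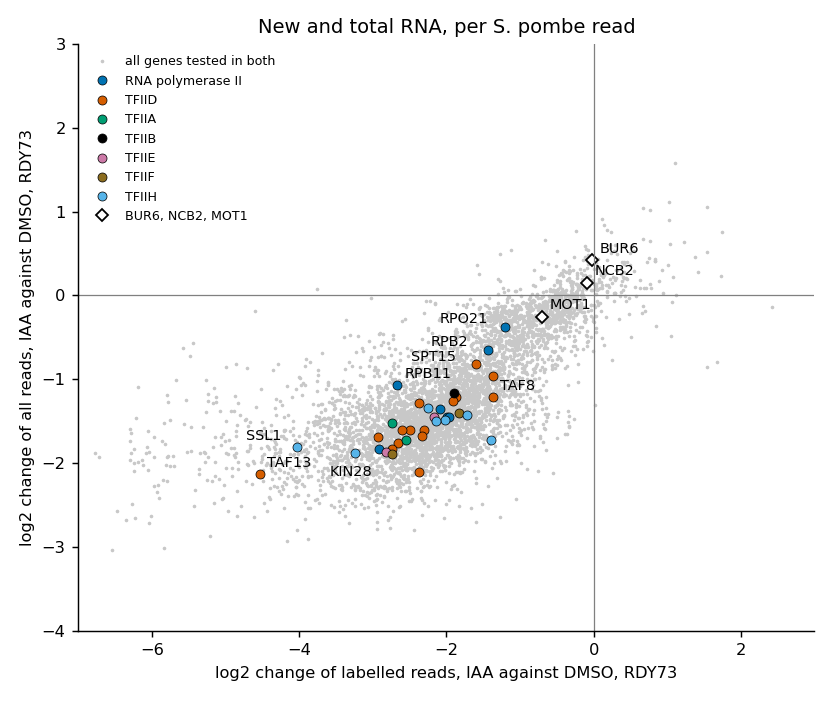
Log2 change of labelled reads (horizontal axis) and of all reads (vertical axis) after IAA against DMSO in RDY73, each per S. pombe read, with the 36 genes coloured by complex, BUR6, NCB2 and MOT1 as open diamonds and the 5195 genes tested in both as grey dots, of which 2 lie outside the axes. All members lie below 0 on both axes, RPO21, RPB2 and SPT15 at its upper edge and TAF13 at its left.

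The share of a gene's reads that carried the label gives a measure that does not need the spike-in. Its median over the 36 genes was 6.03% in RDY73 after IAA and 9.79% in RDY73 after DMSO, and 15.4% and 15.3% in the same groups of RDY234. Pooled over the reads of the 36 genes, the labelled share in RDY73 averaged 5.92% ± 0.11 after IAA and 10.1% ± 0.99 after DMSO. Pooled over all S. cerevisiae reads it averaged 2.44% ± 0.16 and 4.08% ± 0.31 in the same groups (SD, n = 3 each). In a pooled share genes with many reads weigh most, and a median over all genes was not taken. Controls without 4tU gave medians of 0.178% in RDY73 and 0.338% in RDY234 for the members. TAF11 had the highest share in each group with 4tU, 16.6% ± 1.7 in RDY73 after IAA and 26.5% ± 2.7 after DMSO. RPB11 had the lowest, 0.696% ± 0.278 after IAA and 2.22% ± 0.76 after DMSO. In RDY73 TFB3 was the single member whose mean share was higher after IAA, 15.3% ± 2.2 against 11.9% ± 1.0 after DMSO. Its value after IAA rests on 14 labelled reads over the 3 libraries.

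**Figure D4:**
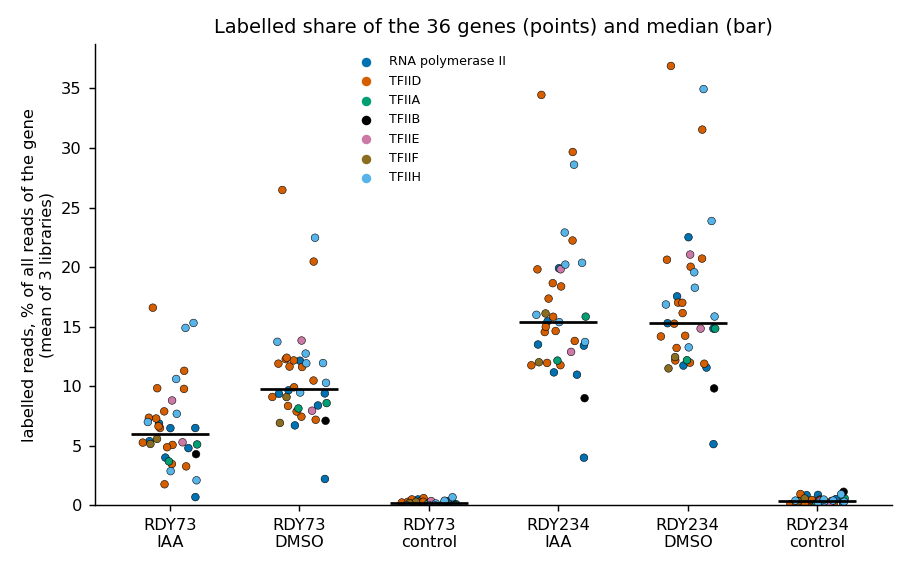
Labelled reads as a percentage of all reads of the gene (vertical axis, mean of 3 libraries) for the 36 genes, coloured by complex, in the 6 groups, with the median as a bar. The medians are 6.03% in RDY73 after IAA and 9.79% after DMSO, about 15% in both RDY234 groups with 4tU and under 0.4% in the controls.

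Across the 36 genes the changes of new and total RNA in RDY73 went together, with Pearson's r of 0.72 and Spearman's rho of 0.76, as a description of points that share their libraries and, in part, their reads. The labelled share in RDY234 DMSO libraries was weakly related to the change of total RNA in RDY73 (rho -0.23, n = 36). The labelled share in RDY73 DMSO libraries showed almost no relation to that change (rho -0.0036, n = 36). Gene length was weakly to moderately related to the changes of new and total RNA in RDY73 (rho 0.39 and 0.35, Pearson's r 0.38 and 0.54, n = 36).

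The members' share of S. cerevisiae reads was lower after IAA in RDY73, as was that of most genes. They made up 0.288% ± 0.009 of all labelled S. cerevisiae reads in RDY73 after IAA and 0.564% ± 0.051 after DMSO (SD, n = 3 each), and the groups did not overlap. Of total reads they made up 0.119% ± 0.003 after IAA and 0.229% ± 0.013 after DMSO. The log2 change of the summed share, in which genes with many reads weigh most, was -0.97 for labelled and -0.95 for total reads. Gene by gene, the members' median was -1.20 for labelled and -1.21 for total reads, against -0.94 and -0.96 over all genes tested. All 36 members had a lower mean share in both kinds, as did 80.0% and 83.2% of all genes. IAA and DMSO libraries overlapped in labelled share for RPO21, RPB2, RPB3, TAF5, TAF8, TFA2, TFB1, KIN28, RAD3 and SSL2. The other members did not overlap in labelled share, nor did any member in total share. In RDY234 the members together made up 0.666% ± 0.035 of labelled reads after IAA and 0.705% ± 0.009 after DMSO, without overlap. Of total reads in RDY234 they made up 0.291% ± 0.018 after IAA and 0.312% ± 0.009 after DMSO, and these groups overlapped. The spike-in was also set aside and libraries were scaled by TMM over their S. cerevisiae genes. TMM uses a trimmed and weighted mean of gene changes and not the sum of all reads, and its 0 was not the median gene. On this scale the median change of new RNA over all genes in RDY73 was -0.29 and that of the members -0.59. On that scale 4 of 36 members were lower, a share near the background, TAF13 (-2.97), SSL1 (-2.53), RPB9 (-1.24) and TOA1 (-1.04), and 0 higher, against 11.5% of all genes lower and 16.3% higher. For total RNA 20 members were lower, against 30.8% of all genes, and RPO21 (0.78), RPB2 (0.51) and SPT15 (0.34) were higher, against 29.6% of all genes. As a share of all S. cerevisiae reads these 3 were lower after IAA, with log2 changes of -0.080 for RPO21, -0.36 for RPB2 and -0.53 for SPT15, so their rise holds on the TMM scale alone among the 3 scales used. For the strain difference this scaling called 1 member in new RNA, TAF13 at -3.12, against 6.68% of all genes more negative and 11.6% more positive. In total RNA it called 11 more negative, against 20.9% of all genes, and RPO21, RPB2 and SPT15 more positive, against 23.1%. It called 0 members in RDY234 after IAA, where 0.0962% of all genes rose in new RNA and 0.23% in total RNA.

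The remaining subunits of the same complexes fell as well. All 8 were lower in new RNA of RDY73, as were 83.9% of all genes, with a median of -2.10 against -1.97 for all genes. The TFIIH core subunits TFB5, TFB2 and TFB4 changed by -4.21 ± 0.81, -3.32 ± 0.69 and -3.07 ± 0.47. TFB5 had 0, 1 and 1 labelled reads in the IAA libraries, against 10, 10 and 14 in the DMSO libraries, with a pooled ratio of 0.0454 (exact 95% counting interval 0.00529 to 0.177). The 5 subunits shared among the polymerases lay between -2.21 for RPO26 and -0.76 for RPB8. The call for RPB8 was lost without DMSO library C, at -0.61.

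Among 13 partners of the machinery 10 of 12 tested fell in new RNA, a share close to the 83.9% of all genes that fell, with a median of -1.24 against -1.97 for all genes. They are the regulators of TBP, the coactivator SUB1, the elongation factor DST1, phosphatases of the polymerase tail and factors for polymerase assembly and import. GPN3 (-2.82 ± 0.67) and NPA3 (-2.40 ± 0.46), GTPases of polymerase import, changed most. RTR1, a tail phosphatase, had too few labelled reads to be tested, 0 over the 3 RDY73 IAA libraries and 4 over the 3 RDY73 DMSO libraries. The genes that did not fall were BUR6 and NCB2, which encode the subunits of NC2, a repressor that holds TBP on DNA and blocks TFIIA and TFIIB. The list was written with earlier results of these data known.

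BUR6 had 26.6, 27.6 and 26.96 scaled labelled reads in the RDY73 IAA libraries, against 27.4, 41.1 and 16.7 in the RDY73 DMSO libraries. The IAA values sat inside the DMSO range, and the log2 change was -0.02 ± 0.31 (adjusted p = 0.96). NCB2 had 16.3, 39.3 and 46.1 after IAA, against 45.3, 42.6 and 22.9 after DMSO, also overlapping, at -0.09 ± 0.29 (adjusted p = 0.782). MOT1, the ATPase that strips TBP from DNA, changed by -0.70 ± 0.22 (adjusted p = 0.00213), less than SPT15 did, and lost its call without DMSO library A, at -0.51.

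In total RNA BUR6 had 431.5, 473.7 and 432.1 scaled reads in the RDY73 IAA libraries, against 289.2, 385.5 and 326.1 in the RDY73 DMSO libraries. All IAA libraries were above all DMSO libraries, and the log2 change was 0.42 ± 0.13 (adjusted p = 0.00284), where 1.16% of all genes rose. NCB2 and MOT1 did not pass, at 0.15 ± 0.13 (adjusted p = 0.258) and -0.25 ± 0.13 (adjusted p = 0.0712). The difference from RDY234 was 0.40 ± 0.18 for BUR6 (adjusted p = 0.0467) and 0.14 ± 0.18 for NCB2 (adjusted p = 0.486). The BUR6 difference was lost without any of 8 of the 12 libraries compared, with values from 0.31 to 0.42. Total RNA per S. pombe read for TBP and for its repressor thus went in opposite directions in RDY73, SPT15 lower and BUR6 higher, while NCB2 did not pass. Under TMM over S. cerevisiae genes all 4 were higher, SPT15 by 0.34, MOT1 by 0.91, NCB2 by 1.31 and BUR6 by 1.58 on the log2 scale. As a share of all S. cerevisiae reads the log2 changes, given without a test, were -0.53 for SPT15, 0.041 for MOT1, 0.45 for NCB2 and 0.71 for BUR6.

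**Figure D5:**
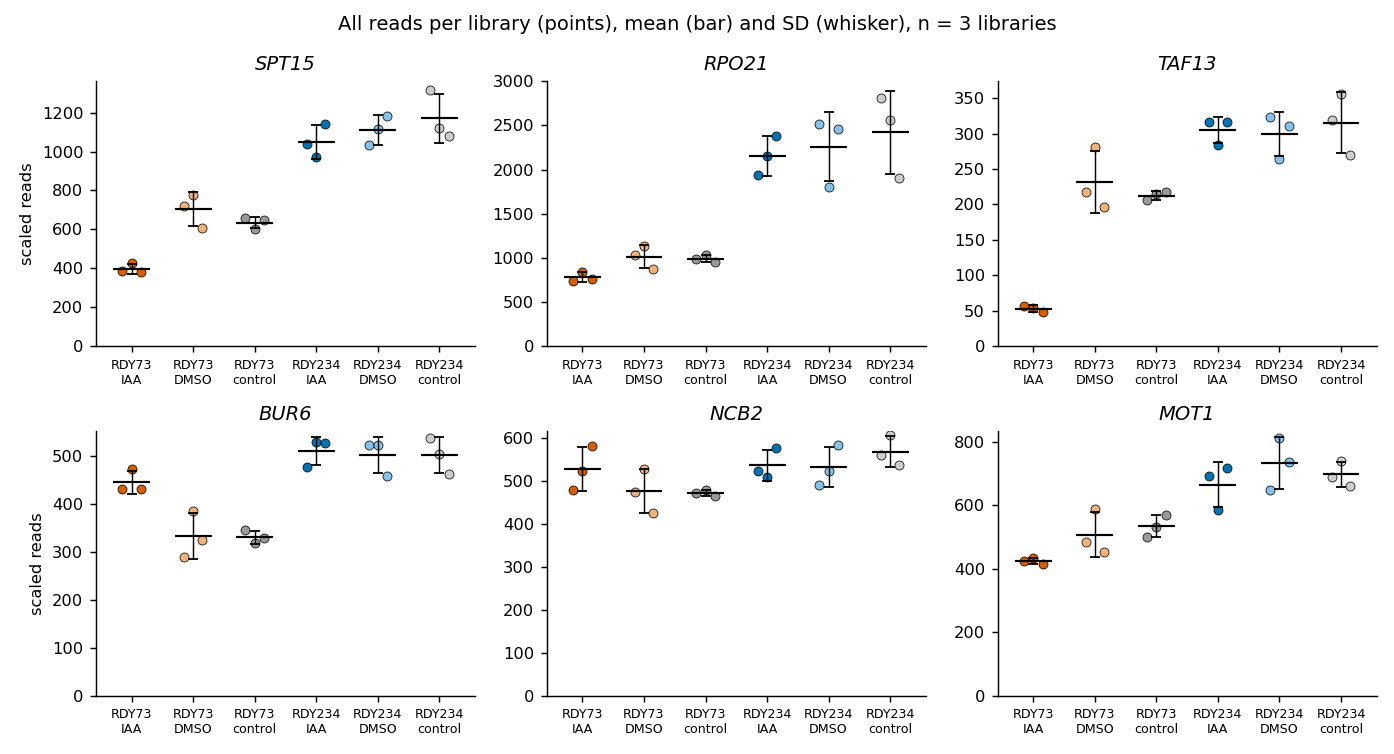
All reads scaled to S. pombe reads (vertical axes, starting at 0) in each library of the 6 groups, for SPT15, RPO21, TAF13 and the TBP regulators BUR6, NCB2 and MOT1. Points are libraries, bars the mean and whiskers the SD of 3 libraries. TAF13 is near 50 in RDY73 after IAA and above 190 elsewhere, while BUR6 is higher after IAA than after DMSO in RDY73.

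Total RNA of the machinery's genes per S. pombe read was lower in RDY73 than in RDY234 before any IAA, as was that of most genes. In the control libraries, total RNA per S. pombe read of 35 of the 36 genes was lower in RDY73, as it was for 77.5% of all genes, while 2.21% were higher, with medians of -0.75 and -0.68. TAF11 (-1.29 ± 0.19, adjusted p = 1.7e-07), RPO21 (-1.29 ± 0.14, adjusted p = 6.78e-10) and RPB3 (-1.09 ± 0.15) differed most, and RPB11 did not pass (-0.04 ± 0.12, adjusted p = 0.762). RPO21 had 988.5, 1032 and 953.1 scaled reads in the RDY73 control libraries, against 2809, 2563 and 1901 in the RDY234 control libraries. The groups were widely apart. BDF1 itself, which is present in an added copy in RDY234, averaged 747.6 ± 36.9 scaled reads in the RDY73 controls and 2398 ± 288 in the RDY234 controls (SD, n = 3 each). The strains differ in that copy and its TRP1 marker, and the part of either was not tested. Under TMM over S. cerevisiae genes RPO21, TAF11 and RPB3 were lower and RPB11 and TOA2 higher in RDY73 controls, 3 and 2 of 36 against 9.21% and 14.3% of all genes.

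The pulse of 4tU left the members' total RNA without a called change. Against the controls, 0 of 36 passed in DMSO libraries of either strain by edgeR's quasi-likelihood test, with 5 and 2 at an unadjusted p under 0.05 in RDY73 and RDY234, and DESeq2 called 0 in both. Among all genes 0.508% rose and 0.148% fell in RDY73, and 0.393% rose and 0.18% fell in RDY234. The widest values were 0.42 ± 0.19 for TAF3 and -0.33 ± 0.13 for TAF5 in RDY73 and 0.38 ± 0.18 for TAF11 in RDY234. TMM over S. cerevisiae genes called 0 members in either strain, with 0.721% of all genes higher and 0.361% lower in RDY73, and 1.21% higher and 0.475% lower in RDY234.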

How the data were processed

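The authors deposited 72 tables of read counts, 4 per library: for each species, 1 with a threshold of 1 T-to-C conversion and 1 with 2. For every gene window the deposited tables hold counts of all reads, of reads reaching the threshold, and of multimapped reads. Reads were trimmed with fastp 0.23.2, per the submitters' processing notes, which name the builds R64 and ASM294v2, and counted with SLAM-DUNK 0.4.3 on an SGD R64 annotation, per the file headers. Mapping settings, library strand and molecular identifiers were not given in the sources used here. Windows ran from the gene's start to 250 bases past its end. They overlap a neighbour on the same strand for TAF7, TAF8, TAF14 and KIN28, by 2 to 34 bases, and one on the other strand for 21 members. In 44 windows that lie inside a window of the other strand with 1000 or more reads, the median count was 4.57% of the outer one. Multimapped reads of the 36 genes were at most 181 per library.

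Libraries were grouped by the strain and treatment in their labels. Genes with at least 10 reads in at least 3 libraries were tested: 5195 over the 12 libraries with 4tU for labelled reads, 6100 over all 18 for total reads. The test was edgeR 4.0.16's quasi-likelihood F test (R 4.3.3) with 1 mean per group, library size set to the S. pombe sum (labelled or all reads to match), and Benjamini-Hochberg adjustment over all genes tested at 0.05. The SE is the absolute log2 change over the root of F. Scaled reads are counts divided by that sum and multiplied by its mean over libraries. The scripts were tested on simulated data. Promoters were read from the R64 genome; tables of promoters and proteins were not used here. Alternatives, DESeq2 1.42.0 among them, are given at the end. Values in every library are given for the most and least changed gene of new RNA in RDY73 among the polymerase, TFIID and TFIIH genes and for SPT15, SUA7 and RPO21; in other comparisons, members past the threshold are named where they are 8 or fewer, otherwise the 3 most changed in each direction. TAF8, KIN28, RPB2, TFB5, BUR6, NCB2 and MOT1 were added after their values were seen. The members and lists were chosen with earlier results of these data known.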

Additional observations from a re-analysis of the deposited data

Results flagged for a closer look

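Results are listed here because the effect of IAA differed between the strains by the fitted difference itself, edgeR's quasi-likelihood test of RDY73 minus RDY234. That held for 34 members in new RNA and 35 in total RNA, all more negative in RDY73. In new RNA the log2 differences were -4.57 for TAF13, -3.58 for SSL1, -3.25 for KIN28, -1.71 for SUA7, -1.46 for SPT15 and -1.08 for RPO21. In total RNA they were -2.16 for TAF13, -1.82 for TAF6, -1.82 for TFG2, -0.74 for SPT15 and -0.42 for RPB2, and 0.40 for BUR6, which was more positive in RDY73. No group had 4 or more libraries, so no library was looked at as standing apart from its group.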

How the results depend on the processing

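Counts of members called stayed within 1.5 times of those reported under TMM over S. pombe genes, DESeq2, no filter, the compared libraries only, a threshold of 1 conversion, scaling to all S. pombe reads and background subtraction. They did not under relative scaling (TMM on the S. cerevisiae genes), which gave 4 members for new RNA in RDY73, 1 for the strain difference in new RNA, 23 for total RNA in RDY73, 14 for the strain difference in total RNA and 5 for RDY73 against RDY234 controls. With the compared libraries only, 31 members could be tested in new RNA of RDY73 and 31 were called; for the strain difference in new RNA that fit is the one reported, so it was not run again. Leaving out 1 library gave 36 to 36 members for new RNA in RDY73, 31 to 35 for the strain difference in new RNA, 35 to 36 for total RNA in RDY73, 34 to 35 for its strain difference and 34 to 35 for the controls.

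Under relative scaling some named log2 changes turned positive. In new RNA of RDY73 these were RPO21 (0.50), RPB2 (0.28), TAF5 (0.32), TAF8 (0.32), SPT15 (0.12), TFB3 (0.27), RPB8 (0.93), MOT1 (0.99), BUR6 (1.70) and NCB2 (1.62), and in its strain difference RPO21 (0.49), SPT15 (0.13), BUR6 (1.39) and NCB2 (1.39). In total RNA of RDY73 they were RPO21 (0.78), RPB2 (0.51), RPB11 (0.083), TAF5 (0.18), SPT15 (0.34), RPB8 (0.021) and MOT1 (0.91), and in its strain difference RPO21 (0.72), RPB2 (0.61) and SPT15 (0.29). RPB11 turned positive between the controls (0.62). By construction this scaling removes a shift shared by most genes. With the replicate block (the letter as a covariate within strain) 36, 34, 36 and 35 members were called in the RDY73 and strain-difference results and 34 between the controls. Letters pair nothing in the labels, and same-letter IAA and DMSO libraries deviated together little, with correlations of -0.11 to 0.06. Counts of 0 to 3 reads limit TAF13, SSL1, KIN28 and TFB5 after IAA in RDY73.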
